A study of Mus musculus with 2 samples.

Results

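The genes of 5 islet hormones, insulin (Ins2), amylin (Iapp), glucagon (Gcg), somatostatin (Sst) and ghrelin (Ghrl), were examined in pancreatic islets of newborn mice that lack PERK and of wild-type mice. All probe sets whose platform annotation names one of these genes were taken, together with any that name Ins1 or Ins2 beside another gene. This gave 5 of the 12393 genes named on the arrays, read by 8 of the 22690 probe sets, 4 for Iapp and 1 for each of the other genes, and 0 probe sets that name Ins1 or that name Ins2 with another gene. The annotation used here gives no gene for 1555 probe sets, so whether one of those reads Ins1 or Ins2 is not known. The study hybridised 2 Affymetrix mouse 430A arrays, 1 for PERK knockout islets and 1 for wild-type islets, both taken 2 days after birth by digestion with collagenase P. The knockout label gives the genotype and age, and the wild-type label adds mixed strains and mixed gender. The cells or exons in which PERK is deleted and the number of pups behind each array are not given in the labels. Each genotype has only 1 array, so the spread between animals is unknown, no p-value was computed, and each ratio compares these 2 libraries.

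PERK, encoded by Eif2ak3, is a kinase in the membrane of the endoplasmic reticulum that slows protein synthesis, by phosphorylating eIF2 alpha, when proteins there fail to fold, and loss of it is known to cause early diabetes in mice and humans. Islet hormones are made as precursors that enter the endoplasmic reticulum and are cut by prohormone convertases in secretory granules. Beta cells make insulin, which lowers blood glucose, and co-secrete amylin, alpha cells make glucagon, which raises glucose, delta cells make somatostatin, which inhibits the release of the other hormones, and epsilon cells, most frequent around birth, make ghrelin, an appetite-stimulating peptide. The mouse has a second insulin gene, Ins1, whose transcript closely resembles that of Ins2. The Ins2 probe set is of the x_at type, which Affymetrix uses for probes that can also bind other transcripts, so its signal may hold both insulin transcripts.

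The sequences before the annotated start sites are shown because the factors that act on these genes in endocrine cells were measured on the same arrays. The RefSeq promoter table (GRCm38.p6) matched 4 of the 5 genes, Iapp (chr6:142298175-142298424, plus strand), Gcg (chr2:62483654-62483903, minus strand), Sst (chr16:23890845-23891094, minus strand) and Ghrl (chr6:113719912-113720161, minus strand). Of 4 entries for Ghrl, the one at the outermost annotated start was taken, and the start of the Sst entry lies 498 bases inside the annotated gene end. Each line gives the 250 bases before the start site, 5′ to 3′, with matches on either strand to TAAT (the core bound by homeodomain factors such as Pdx1, Nkx6-1 and Isl1), TGACGTCA (the cyclic AMP response element) and TATAAA (the TATA box) in capitals.
Iapp: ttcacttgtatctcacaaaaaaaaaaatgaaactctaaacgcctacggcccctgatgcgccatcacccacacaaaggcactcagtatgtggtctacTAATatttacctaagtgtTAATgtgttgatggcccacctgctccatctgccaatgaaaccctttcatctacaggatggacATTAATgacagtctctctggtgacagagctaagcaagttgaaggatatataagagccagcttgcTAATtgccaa
Gcg: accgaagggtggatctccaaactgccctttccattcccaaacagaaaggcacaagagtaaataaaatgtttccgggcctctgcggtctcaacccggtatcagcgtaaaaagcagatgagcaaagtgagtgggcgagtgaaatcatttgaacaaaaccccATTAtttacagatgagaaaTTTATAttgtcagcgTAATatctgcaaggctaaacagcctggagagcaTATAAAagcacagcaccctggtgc
Sst: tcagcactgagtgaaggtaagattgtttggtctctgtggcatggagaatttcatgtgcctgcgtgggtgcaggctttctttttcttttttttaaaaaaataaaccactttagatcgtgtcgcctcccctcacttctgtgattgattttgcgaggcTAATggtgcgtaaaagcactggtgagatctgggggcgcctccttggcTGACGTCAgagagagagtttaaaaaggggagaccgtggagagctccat
Ghrl: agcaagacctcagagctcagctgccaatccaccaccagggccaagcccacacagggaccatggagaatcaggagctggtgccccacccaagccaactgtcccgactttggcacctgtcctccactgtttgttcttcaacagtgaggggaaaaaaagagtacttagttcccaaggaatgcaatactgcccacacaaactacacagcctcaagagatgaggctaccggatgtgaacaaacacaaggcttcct

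TAAT occurred 5 times before Iapp, 2 times before Gcg, 1 time before Sst and 0 times before Ghrl, against at least 1 match in 55.4% of the 27025 promoters of the same length. The nearest match of Iapp began 10 bases before the start site, and its matches at 74 and 72 bases overlap on opposite strands. TGACGTCA stood before Sst alone of the 4, at 48 bases from the start, and was held by 1.6% of all promoters. TATAAA matched 2 times before Gcg, at 72 and 24 bases, and in none of the other 3, against 13.0% of all promoters. These matches describe letters in a window and are not measured binding sites.

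The insulin, glucagon and somatostatin signals were nearly level between the genotypes, amylin was slightly lower in the knockout on 3 of its 4 probe sets, and ghrelin was 1.71-fold higher in the knockout. A signal is a linear array intensity in arbitrary units. Values of a probe set may be set against the same probe set on the other array, but the brightness of different probe sets does not order their transcripts. No member was at least 2-fold apart, and of 8133 genes measured on both arrays (above a floor of 39.8 on each) 1.17% were.

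Ins2 had a signal of 6163 in the knockout and 5652 in the wild type, a log2 ratio (knockout over wild type throughout) of 0.12. Its signal was 74.8% of the brightest signal of the knockout array and 69.5% of that of the wild-type array. The insulin probe set was thus slightly brighter in the knockout. The array maxima were close (8242 in the knockout, 8133 in the wild type), so the share repeats the difference in signal and adds no support. Across the processing alternatives the log2 ratio fell as low as 0.03.

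Iapp was read by 4 probe sets, numbered here by brightness. The first (of the at type) had 6149 in the knockout and 6710 in the wild type, a log2 ratio of -0.13. The next 2 (both a_at) had 4708 and 3905 in the knockout and 4933 and 4413 in the wild type, with log2 ratios of -0.07 and -0.18. The 3 bright sets were therefore all lower in the knockout. The dimmest (x_at) went the other way, with 442.8 in the knockout and 410.5 in the wild type, a log2 ratio of 0.11. The median of the 4 log2 ratios was -0.10 and their SD was 0.12, so the amylin difference was no larger than the disagreement among its own probe sets.

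Gcg had 5718 in the knockout and 5662 in the wild type (log2 ratio 0.01), the smallest difference of the 5 genes. Sst had 5868 in the knockout and 5645 in the wild type (log2 ratio 0.06). The sign of the Gcg ratio turned under median centring (-0.08), quantile normalization (-0.03) and loess (-0.01), and that of Sst under median centring (-0.04), so neither has a settled direction.

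Ghrl had 2503 in the knockout and 1461 in the wild type, a log2 ratio of 0.78. Its ratio lay 0.74 above the median of the other 4 genes on the log2 scale. Between probe sets that share a gene, log2 ratios differed with an SD of 0.26 per probe set (2597 genes). That SD holds disagreement between probe sets only. Error that the probe sets of an array share cancels in it, and the spread between animals is not in it. The Ghrl ratio was 3.0 times that SD, and it rests on a single probe set with no second one to set beside it. In bulk islets, more ghrelin cells and more ghrelin RNA per cell cannot be told apart, and the same holds for the other hormones.

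**Figure D1:**
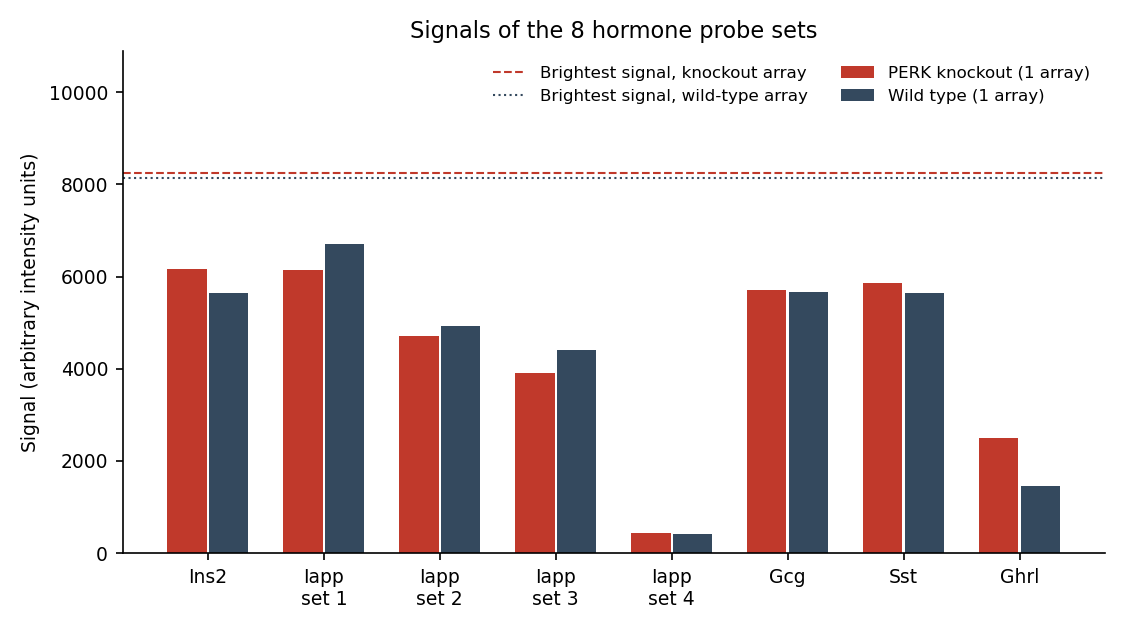
Signal in arbitrary intensity units of the 8 hormone probe sets on the PERK knockout array (red) and the wild-type array (dark blue), 1 array each, with no error bars because there are no replicates. The 4 Iapp sets are numbered by brightness, and the lines at 8242 and 8133 mark the brightest signal of the knockout and wild-type arrays. Ghrl shows the widest gap (2503 in the knockout, 1461 in the wild type).

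On both arrays the hormone genes stood among the brightest probe sets. Ranked over all 22690 probe sets, Ins2 was 25th in the knockout and 35th in the wild type, Sst 33rd in the knockout and 36th in the wild type, and Gcg 39th in the knockout and 33rd in the wild type. The brightest Iapp set was 27th in the knockout and 9th in the wild type, and its next 2 were 86th and 145th in the knockout and 57th and 88th in the wild type. Of the 8 member probe sets, 5 were in the top 100 of the knockout array and 6 in the top 100 of the wild-type array.

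The brightest Iapp set thus ranked lower in the knockout, with a log2 ratio in signal of -0.13. Many probe sets lie close together at this brightness, and 103 had at least 50% of the maximum on both arrays. Between the Ins2 set and the brightest Iapp set the order was opposite in the 2 libraries, with Ins2 ahead in the knockout and Iapp ahead in the wild type. Ghrl was 280th in the knockout and 588th in the wild type, which is the top 1.23% in the knockout and the top 2.59% in the wild type. The dimmest Iapp set was 2291st in the knockout and 2505th in the wild type.

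The 2 closest other hormones made in islets, pancreatic polypeptide (Ppy) and peptide YY (Pyy), shared this part of the scale and were higher in rank in the knockout. Ppy had 7733 in the knockout and 6573 in the wild type (log2 ratio 0.23) and ranked 3rd in the knockout and 12th in the wild type. Pyy had 6747 in the knockout and 5654 in the wild type (log2 ratio 0.26) and ranked 13th in the knockout and 34th in the wild type. Each has 1 probe set.

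**Figure D2:**
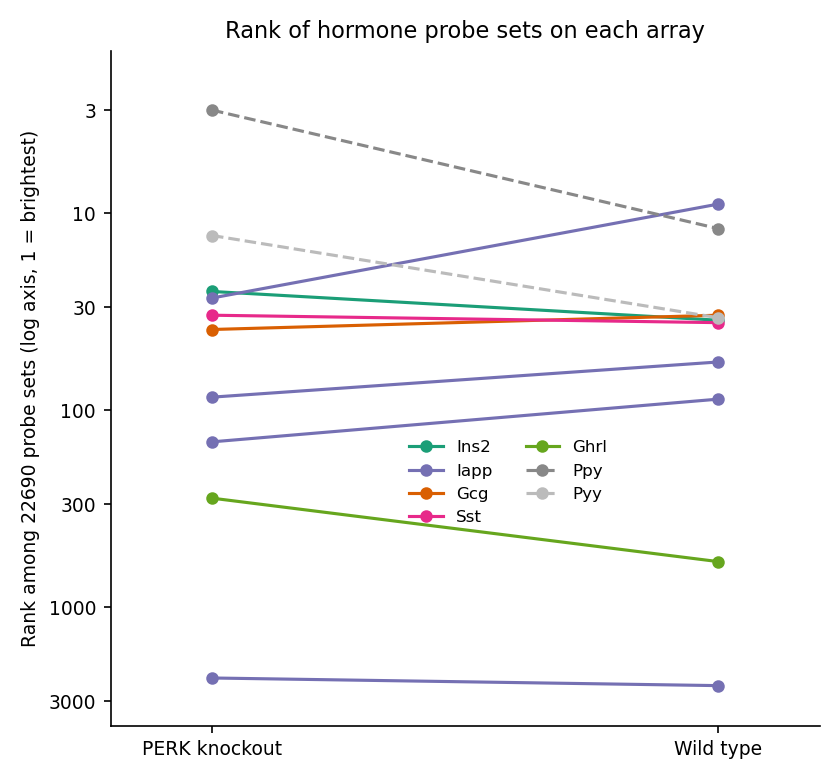
Rank of each hormone probe set among all 22690 on the PERK knockout array (left) and the wild-type array (right), on a log axis with the brightest at the top. Each line is 1 probe set, Iapp has 4, and the dashed grey lines are Ppy and Pyy. Iapp lines run up towards the wild type for its 3 bright sets, and the Ghrl line runs down (280 in the knockout, 588 in the wild type).

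The nearest probe sets in rank on the knockout array that carry a single gene name, passing over controls and sets with no or several names, were mostly of ribosomal proteins and secretory or exocrine genes. Around Ins2 (25th) they were Rpl37a (22nd) and Chga (23rd, chromogranin A, a granule protein, log2 ratio -0.17) above and a Ttr (transthyretin) set (26th, -0.01) and the brightest Iapp set (27th) below. Below the brightest Iapp set came Rps28 (31st, 0.12) and Rplp2 (32nd, 0.08). Those sets were also the nearest above Sst (33rd), with Rpl37a (35th, -0.11) and Rpl7a (38th, 0.03) below it. Around Gcg were the same sets of Rpl37a and Rpl7a above and Gnas (42nd, 0.07) and the trypsin gene Prss2 (45th, -0.06) below. Around Ghrl (280th) were Itm2b (277th, 0.22), Eif3e (278th, 0.17), Npc2 (282nd, 0.51) and Spint2 (283rd, 0.33), all higher in the knockout library. Neighbours were picked by rank on the knockout array alone, which favours sets brighter there, so this shared direction says nothing about Ghrl. The 5 brightest genes of the knockout array were Ttr, Rpl41, Ppy, the acinar enzyme gene Ctrb1 and Eef1a1. Apart from Ppy, their log2 ratios lay at 0.02 or -0.02.

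Bright signals varied little between the arrays whichever gene they read. Among the 41 measured genes with a mean share of at least 50% of the maximum, log2 ratios ran from -0.17 to 0.26 with an SD of 0.10. In the ranges of 25% to 50% and 10% to 25% of the maximum the SD was 0.23, over 116 and 504 genes. It was 0.32 over the 932 genes between 5% and 10%, and 0.34 over the 6540 genes below that. None of the 37 genes at or above 50% on both arrays, 4 of them members, was 1.5-fold apart (0%), against 7.14% of all measured genes.

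The brightest recorded signal was also not far above the bright hormone signals. The brightest signal of the knockout array was only 1.46 times the wild-type signal of Ins2, of Gcg and of Sst, and 1.23 times that of the brightest Iapp set. For 6 of the 8 probe sets a signal 2 times that of the wild type would lie above anything recorded on the knockout array. The exceptions were Ghrl (5.64 times) and the dimmest Iapp set (20.08 times). These figures restate each set's share of the maximum. That maximum is a Ttr signal, and whether it lies near an upper limit of the scanner is not known. Whether the hormone transcripts changed by more than their probe sets show cannot be read from these signals.

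Dimmer probe sets of the same genes were available for 5 genes that had 1 set at or above 50% of the maximum and another below 25%. Iapp was among them, with log2 ratios of 0.11 on the dim set and -0.13 on the bright one. The dim set gave the log2 ratio of larger size in 4 of the 5: Rpl37a (-1.89 on the dim, 0.07 on the bright), Gnas (-0.74 and 0.07), Rpl41 (0.70 and -0.02) and Rps10 (0.38 and 0.15). In Gnas and Rpl41, as in Iapp, the 2 sets also pointed in opposite directions, and so they did in Rpl37a. The dim sets of Rpl37a, Rpl41 and Gnas had signals between 45.4 and 228.5, where probe sets of a gene disagreed most (SD 0.27 below 5% of the maximum).

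Control transcripts that are usually added in equal amounts to each hybridisation gave a measure of error from that step onward, at the brightness of the hormones. Of 18 such probe sets, 3 for cre had at least 50% of the maximum by mean share, and their log2 ratios were -0.06, 0.07 and 0.26. The ratios of Ins2, Gcg, Sst and the brightest Iapp set differ from 0 by less than the largest of these. The cre set at 0.26 had 7660 in the knockout and 6417 in the wild type, and the ratios of Ppy and Pyy were no larger. Between 10% and 50% of the maximum, where Ghrl lies, the 4 control sets had log2 ratios of -0.04, -0.03, 0.16 and 0.60. The set at 0.60 (bioD, 3′ end) had 1341 in the knockout and 883.8 in the wild type, while a second set for the same end of bioD had 1386 in the knockout and 1424 in the wild type. The Ghrl ratio of 0.78 was larger than all 18 control ratios, which ran from -0.56 to 0.60. Those sets read only bioB, bioC, bioD and cre, with several sets for each, so they are not 18 separate checks. They hold no error from animals, islet isolation or RNA, so they do not show that the Ghrl ratio exceeds such error.

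**Figure D3:**
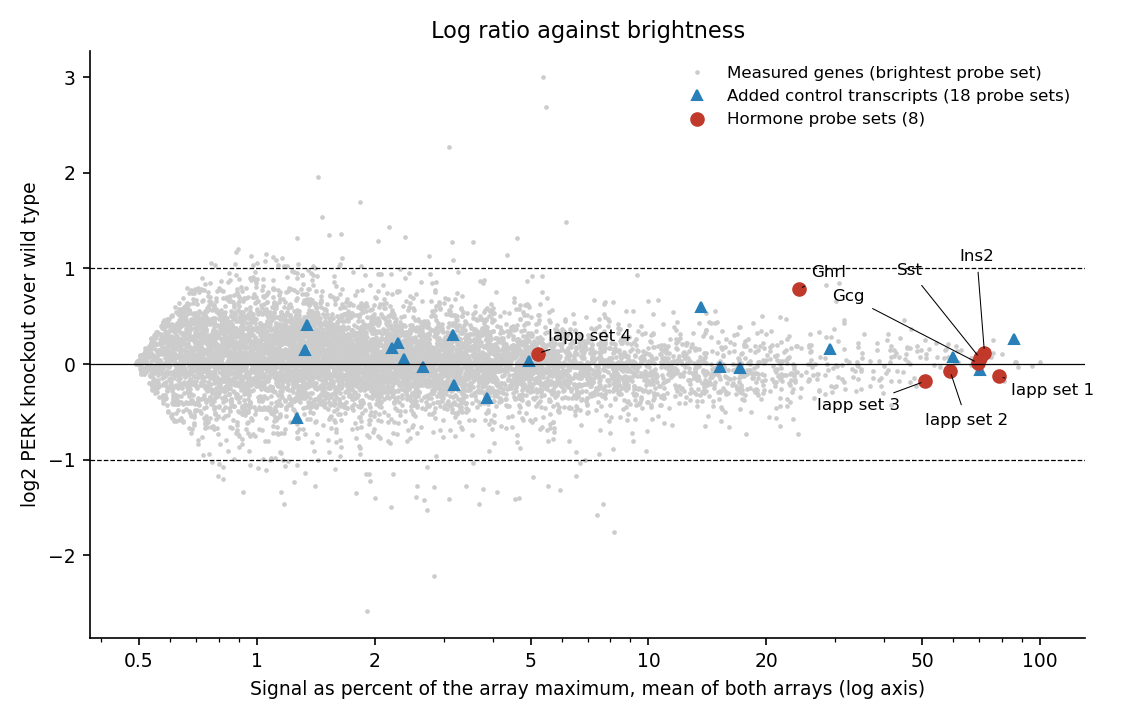
Log2 ratio of PERK knockout over wild type against brightness, as the percent of the array maximum averaged over both arrays (log axis). Grey points are the 8133 measured genes, blue triangles the 18 control probe sets and red circles the 8 hormone probe sets. Dashed lines mark a 2-fold difference. The spread narrows towards the bright end, where 4 of the 5 hormone genes lie, and Ghrl sits at 0.78 among less bright genes.

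Among genes of Ghrl's brightness, ratios of at least 1.5-fold were few. Of 620 measured genes with a mean share between 10% and 50% of the maximum, 5 were higher in the knockout by 1.5-fold or more (0.806%) and 8 were lower by as much (1.29%). The 5 were Reg1 (log2 ratio 0.85), Rnase4 (0.82), Ghrl, Zg16 (0.67) and Uqcrb (0.66), named here after their values were seen. Reg1 and Zg16 are expressed in acinar cells, so the range holds genes of exocrine as well as endocrine cells.

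Transcription factors known to act on the hormone genes had ratios in both directions. Of 20 listed regulators, 14 were on the array and 12 were measured, with a median log2 ratio of 0.06 against 0.03 over all measured genes. Of these, 3 were at least 1.5-fold higher (4.19% of all measured genes were), 0 were at least 1.5-fold lower (2.95%), and 6 lay on either side of 0. With median centring 1 was higher and 2 were lower by that fold. Pou3f4, an alpha cell factor that acts on the glucagon gene, had 219.4 in the knockout and 114.4 in the wild type (1.92-fold higher). Irx2, another alpha cell factor, had 284.1 in the knockout and 186.0 in the wild type, and Hhex, a factor required by delta cells, 479.2 in the knockout and 313.0 in the wild type. The 2 brightest regulators were Neurod1, an activator of the insulin gene (1596 in the knockout, 1781 in the wild type), and Isl1, a homeodomain factor of all endocrine cells (1726 in the knockout, 1374 in the wild type).

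The hormones and the other markers of their cells did not show equal differences. Gcg and Sst were near level while Irx2 and Hhex each had a log2 ratio of 0.61. Ins2 and Iapp were near level while the other 4 beta cell markers measured, Slc2a2 (-0.89), G6pc2 (-0.73), Nkx6-1 (-0.58) and Pdx1 (-0.34), were all lower in the knockout, with signals that sum to 2519 in the knockout and 4117 in the wild type. All of these markers had 2.29% to 30.2% of the maximum, below the range in which Ins2, Gcg, Sst and the brightest Iapp set lie. The part of brightness in this contrast was not tested.

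Among genes that turn the precursors into hormones, one differed strongly. Pcsk1, the convertase that starts the cleavage of proinsulin, had 332.6 in the knockout and 919.8 in the wild type, 2.77-fold lower. Of 14 names listed for prohormone maturation and granule zinc, 10 were on the array, and Pcsk2, Slc30a8 and Mboat4 were not among them. Pcsk1 was 1 of these 10, all measured, and no other was at least 1.5-fold apart (7.14% of all measured genes were). With the median over a gene's measured probe sets, Ero1b, an oxidase of the endoplasmic reticulum, was a second (log2 ratio -0.72), against 1062 in the knockout and 1444 in the wild type on its brightest set. The median of the list was 0.14. The brightest members were carboxypeptidase E (Cpe), which trims basic residues after cleavage, with 3974 in the knockout and 3525 in the wild type, and Scg5, the chaperone of the convertase PC2, with 3646 in the knockout and 3362 in the wild type.

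Other peptide hormones of islet and gut were mostly higher in the knockout library. Of 21 listed, 18 were on the array and 11 were measured, and 9 of the 11 had log2 ratios above 0 (54.9% of all measured genes had), with a median of 0.45. Gastrin (Gast) had 106.3 in the knockout and 62.4 in the wild type (1.70-fold), and galanin (Gal) 145.8 in the knockout and 93.1 in the wild type (1.57-fold). Those were the only 2 at least 1.5-fold higher, where 4.19% of all measured genes were. Under median centring, quantile normalization, loess, the higher floor or a pseudocount 1 was. Npy was the exception, with 304.8 in the knockout and 1027 in the wild type, 3.37-fold lower. Apart from Ppy, Pyy and Npy, the measured peptides had signals of at most 301.2 in the knockout and 230.5 in the wild type.

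Of 15 listed genes of hormone receptors and RAMP partner proteins, 13 were on the array, and the ghrelin receptor Ghsr and Gipr were not among them. Of the 13, 8 were measured and 5 were at the floor on both arrays. Among those 5 were the GLP-1 receptor Glp1r (34.1 in the knockout, 37.5 in the wild type) and the calcitonin receptor Calcr, which forms amylin receptors with RAMP proteins. Ramp1, one of those partners, had 541.0 in the knockout and 216.5 in the wild type (log2 ratio 1.32). It was the 1 gene of the 8 measured at least 1.5-fold apart, where 7.14% of all measured genes were. With median centring, quantile normalization or loess, the somatostatin receptor Sstr5 (64.1 in the knockout, 90.7 in the wild type) was also apart, at -0.60 to -0.59. Ramp2, another partner protein and the brightest gene of the list, had 671.2 in the knockout and 735.5 in the wild type. The insulin receptor Insr had 64.1 in the knockout and 47.2 in the wild type, the glucagon receptor Gcgr 115.0 in the knockout and 107.3 in the wild type, and Sstr2 138.7 in the knockout and 119.3 in the wild type. Of the 11 measured genes of insulin receptor signalling 0 were at least 1.5-fold apart, and their median was 0.00. Its brightest members were the adaptor Grb10 (1400 in the knockout, 1681 in the wild type) and the kinase Akt1 (440.9 in the knockout, 559.7 in the wild type). Irs2, an insulin receptor substrate, was at the floor in the knockout only (36.0 in the knockout, 63.7 in the wild type), at least 1.60-fold lower, and with the floor at the 25th percentile it was measured on both (log2 ratio -0.82).

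**Figure D4:**
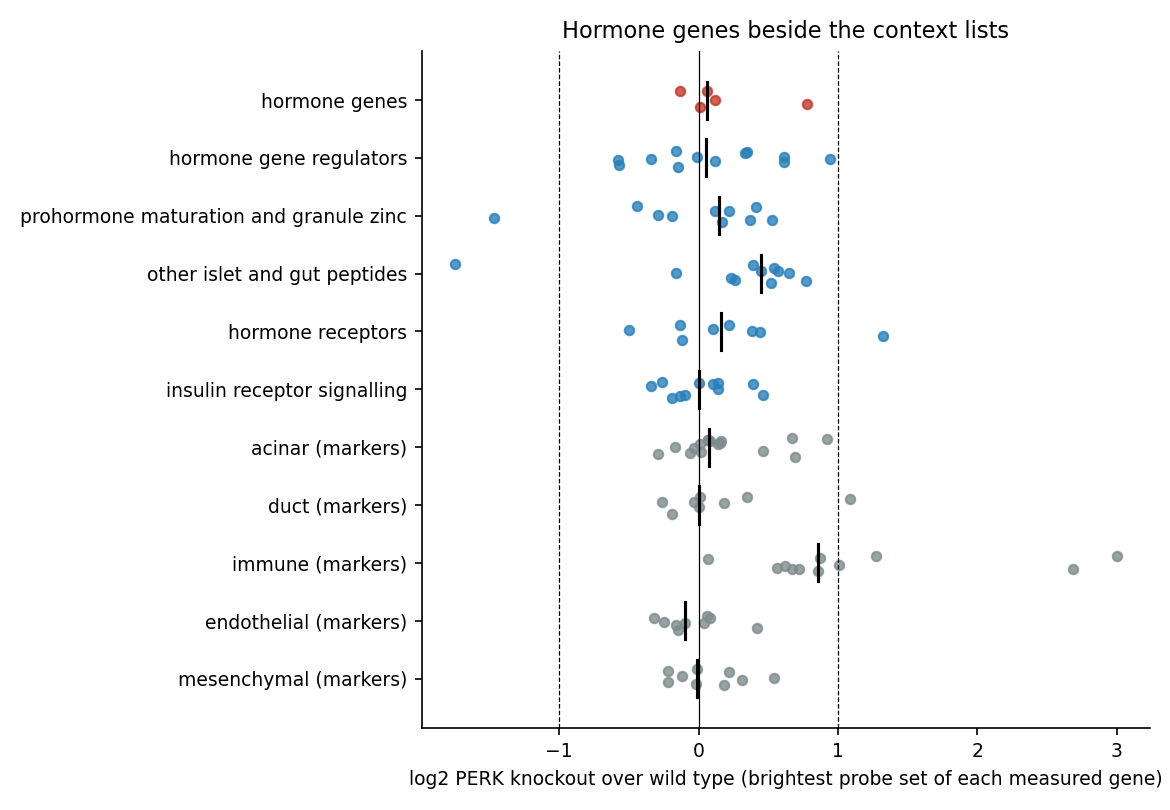
Log2 ratio of PERK knockout over wild type for the measured genes of each list, on the brightest probe set of a gene. Red points are the 5 hormone genes, blue points the context lists, grey points marker lists of other cell types, and black bars the medians. Dashed lines mark a 2-fold difference. Of the hormone genes Ghrl lies furthest from 0 (0.78), and the immune markers have the highest median (0.86).

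Markers of other cells show what the hormone signals were mixed with. Of 13 immune markers, 11 were measured and 2 were at the floor in the wild type only. All 11 were above 0, and 9 were at least 1.5-fold higher, where 4.19% of all measured genes were. The summed signal of the list was 3884 in the knockout and 1593 in the wild type. The 2 with the highest ratios were the calprotectin genes S100a8 (788.8 in the knockout, 98.9 in the wild type) and S100a9 (778.3 in the knockout, 120.8 in the wild type). Among the 9 were also Lyz1 (1.27, with another measured set at 0.32) and H2-Aa (1.01, with another at 0.69). The 16 acinar markers on the array summed to 56950 in the knockout and 54380 in the wild type, with a median of 0.07. Of these, 3 were at least 1.5-fold higher (4.19% of all measured genes were), Pla2g1b (0.92), Ctrl (0.69) and Zg16 (0.67). The brightest acinar genes, Ctrb1 (7178 in the knockout, 7076 in the wild type) and Cela3b (7119 in the knockout, 7279 in the wild type), were also near the top of the scale, at 86.4% to 89.5% of the maximum.

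Of 8 measured duct markers, 1 was at least 1.5-fold apart, where 7.14% of all measured genes were, and the median was 0.00. It was Tspan8 (354.7 in the knockout, 166.8 in the wild type), whose 2 other measured sets had log2 ratios of 0.57 and 0.65. Log2 ratios were -0.00 for Krt8 and 0.18 for Krt18, the 2 brightest. None of 9 endothelial markers was at least 1.5-fold apart (median -0.10, Esam -0.10 and Plvap 0.08). The same held for 9 mesenchymal markers (median -0.01, Sparc -0.02 and Vim -0.01). The summed duct signal was 6980 in the knockout and 6281 in the wild type, the endothelial one 3385 in the knockout and 3489 in the wild type, and the mesenchymal one 11330 in the knockout and 11540 in the wild type. The duct marker Cftr was at the floor on both arrays (4.6 in the knockout, 10.4 in the wild type). The part of these other cell types in the Ghrl ratio was not tested.

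The check of the genotype rests on a dim signal. Eif2ak3 had 58.7 in the knockout and 117.7 in the wild type on its brightest set (2.01-fold lower), and neither of its other sets rose above the floor on an array. Whether these probes lie in the deleted part is not given, and outside it they would not test the label.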

How the data were processed

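Biotin-labelled cRNA of islet RNA was hybridised to 2 arrays, per the labels' protocols. The authors deposited 1 linear intensity per probe set and array. Per the submitters' processing notes GCOS 1.02 was used, while background correction, probe summary and detection calling are not stated there. The deposited intensities have the same 2% trimmed mean (150.1) on both arrays.

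From these intensities, the knockout array was set to the wild-type trimmed mean (factor 1.00), values below a floor of 39.8 (the 40th percentile over both arrays) were raised to it, and the ratio of knockout to wild type was expressed as log2 (Python 3.11.15, numpy 2.4.6, pandas 2.3.3, scipy 1.17.1). Of the probe sets, 20380 had 1 gene symbol (20351 matched RefSeq), 691 several, 1555 none, and 64 were controls, which entered no gene table. A gene was represented by its brightest probe set, and 8133 of 12393 genes were above the floor on both arrays. Calls are by size, 2-fold for members and 1.5-fold for lists. The number of arrays limits the precision. The steps were tested on simulated data. The simulation planted changes larger than any member difference and did not model compression of bright signals, so it does not bear on the member ratios.

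Members, lists and the rule for named genes were chosen with earlier results of these data known. The rule named all member probe sets, the nearest singly named probe sets in rank, the 5 brightest genes and, per list, up to 4 genes in each direction at least 1.5-fold apart and the 2 brightest. The receptors Insr, Gcgr, Sstr2, Sstr5, Glp1r and Calcr, the unequal markers of endocrine cells, Ero1b and Irs2 were added after their values were seen. The 9 alternatives covered scaling, floor, pseudocount and probe set choice.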

Additional observations from a re-analysis of the deposited data

How the results depend on the processing

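No paired analysis was possible because each genotype has 1 array. The member ratios were recomputed under 9 alternatives for genes (8 for Ins2) and 7 for probe sets. All 100 log2 ratios stayed within the probe set SD over all genes (0.26) of the reported value, but much of this was fixed in advance. All members lay above every floor, and the deposited trimmed means were already equal. The deposited values and the other floors therefore left each member ratio as reported. A change of probe set could alter only Iapp, which alone has several sets. Only median centring, quantile normalization, loess and, slightly, the pseudocount could move the other members. The count of members at least 2-fold apart stayed at 0. The gene ratios ranged from 0.68 to 0.80 for Ghrl, 0.03 to 0.12 for Ins2, -0.22 to -0.10 for Iapp, -0.08 to 0.01 for Gcg and -0.04 to 0.06 for Sst. At 50% of the maximum or more the probe set SD was narrower, 0.08 (11 genes). The shift of Gcg from 0.01 to -0.08 is not small beside it. Ins2 has no value without x_at and s_at sets. The count of all measured genes at least 2-fold apart, 95 as reported, was 161 with the floor at the 25th percentile, 41 with the floor at the 60th percentile and 54 with a pseudocount of 16 in place of the floor. By direction, 42 higher and 53 lower became 25 and 69 with median centring, 27 and 59 with quantile normalization and 27 and 59 with loess. The median of all measured genes was 0.03 as reported and -0.06 with median centring. Of 252 list counts at the 1.5-fold limit, 236 stayed within 1.5 times the reported count. With median centring the higher hormone gene regulators numbered 1 in place of 3 and the lower ones 2 in place of 0.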
